A study of Mus musculus with 4 samples.

Results

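The 9 Serpinb genes described here (Serpinb1a, Serpinb2, Serpinb5, Serpinb6a, Serpinb6b, Serpinb6c, Serpinb8, Serpinb9 and Serpinb9b) were measured by 15 of the 45037 probe sets of an Affymetrix mouse array, and 18193 genes had a probe set of their own. Members were the probe sets that the platform annotation gives to these genes alone. The genes were chosen with the knockout-control differences of these arrays already known, so those differences are given as a description and without a p-value. Total RNA came from immortalized precursors of brown fat cells (brown preadipocytes) of mixed C57/BL6-129 background, with floxed alleles of G9a (G9af/f) in all 4 arrays. The knockout group was treated with Cre recombinase, which removes floxed DNA (2 arrays, labelled G9a knock out). The control group received the vector (2 arrays, labelled wild type although it carries the floxed alleles). Arrays 1 and 2 of each group are numbered in the labels, and a pair is the knockout and the control array of 1 number. The labels do not say how Cre was delivered, which exons it removed, or whether arrays 1 and 2 were separate cultures, so all p-values measure the spread between these arrays.

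Serpins of clade B are the intracellular branch of the serpin family. An inhibitory serpin offers a target protease an exposed loop as bait, and cleavage of the loop traps the protease in an inactive complex. In mouse the genes form tandem arrays on separate chromosomes, with several mouse copies where human has 1 gene, as in the Serpinb6 and Serpinb9 groups. G9a, encoded by Ehmt2, is a histone methyltransferase that places the repressive mark H3K9me2.

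In the RefSeq gene order of GRCm38.p6 the members lie in separate clusters. On chromosome 13, 17 Serpinb genes (16 of them protein-coding) follow each other with no gene of another family on the array between them. The members there are Serpinb1a (1st), Serpinb6b (4th), Serpinb9 (5th), Serpinb9b (6th), Serpinb6c (16th) and Serpinb6a (17th). On chromosome 1, 12 Serpinb genes include the members Serpinb5 (1st), Serpinb2 (10th) and Serpinb8 (12th).

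The promoters of Serpinb6b, Serpinb9 and Serpinb9b are shown because these neighbours had the largest knockout-control differences among the 9 genes. Each window holds 250 bases before and 50 after the start, from RefSeq (GRCm38.p6), written 5′ to 3′ on the gene's strand. Capitals mark a match to any of 4 motifs searched on both strands. These were the core of interferon regulatory factor sites (IRF core, AANNGAAA), the STAT site GAS (TTCNNNGAA), the AP-1 site (TGANTCA) and the TATA box (TATAAA). Matches did not overlap in these windows.
Serpinb6b, chr13:32965011-32965310, strand +: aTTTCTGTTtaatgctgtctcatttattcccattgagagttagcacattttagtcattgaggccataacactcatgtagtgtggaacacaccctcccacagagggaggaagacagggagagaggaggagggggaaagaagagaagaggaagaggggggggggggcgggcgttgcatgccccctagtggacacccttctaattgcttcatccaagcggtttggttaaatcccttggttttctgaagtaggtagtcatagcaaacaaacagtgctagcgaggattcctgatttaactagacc
Serpinb9, chr13:33004291-33004590, strand +: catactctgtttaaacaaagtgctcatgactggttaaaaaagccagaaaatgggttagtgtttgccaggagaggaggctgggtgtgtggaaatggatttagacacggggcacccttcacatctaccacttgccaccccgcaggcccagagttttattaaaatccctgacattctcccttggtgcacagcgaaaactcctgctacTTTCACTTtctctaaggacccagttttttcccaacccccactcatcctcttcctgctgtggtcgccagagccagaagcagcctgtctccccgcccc
Serpinb9b, chr13:33027164-33027463, strand +: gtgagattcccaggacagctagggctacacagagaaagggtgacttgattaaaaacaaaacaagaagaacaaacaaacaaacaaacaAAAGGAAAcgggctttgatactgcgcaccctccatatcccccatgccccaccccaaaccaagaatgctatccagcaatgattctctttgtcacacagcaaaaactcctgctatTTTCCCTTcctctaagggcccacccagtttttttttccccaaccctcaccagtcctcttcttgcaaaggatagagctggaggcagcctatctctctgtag

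All matches in these windows were IRF cores. Serpinb9 held 1, on the opposite strand, starting 46 bases before the start site. Serpinb9b held 2, the nearer of them on the opposite strand and starting 50 bases before the start site, and Serpinb6b held 1 at the far edge of its window. An IRF core stood in 6 of the 10 member windows and in 9 of the 22 windows of other Serpinb genes. The 2 windows of Serpinb2 overlap, so 1 IRF core there is counted in both. Of all 32851 windows, 23.9% held an IRF core, 8.3% a GAS site, 7.81% an AP-1 site and 13.6% a TATA box. A match is a description of letters, and its absence says only that the letters are not in the window.

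Serpinb9 and Serpinb9b shared 59.6% of 332 aligned columns, above the median of 49.8% over 496 pairs of Serpinb windows, while Serpinb6b shared 47.2% with Serpinb9 and 44.9% with Serpinb9b. The nearer IRF core of Serpinb9b aligned with that of Serpinb9, as the 29 aligned bases around them show, with the cores in capitals. The cores had 7 of 8 bases in common and the stretches 26 of 29.
Serpinb9 stretch: aactcctgctacTTTCACTTtctctaagg
Serpinb9b stretch: aactcctgctatTTTCCCTTcctctaagg

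Windows were found for 8 of the 9 members, all but Serpinb1a. CpG dinucleotides, counted because DNA methylation acts on them, numbered 4 in the window of Serpinb6b, 5 in that of Serpinb9 and 2 in that of Serpinb9b, against a median of 7 over all windows. All 32 Serpinb windows lay below that median except those of Serpinb5 (7) and Serpinb6c (10), the second of Serpinb9c (9) and the first of Serpinb6a (25). Low counts were thus not particular to Serpinb6b, Serpinb9 and Serpinb9b. The first Serpinb6a window also held an IRF core and 2 GAS matches.

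The check of the labels came first. Ehmt2 read 953 and 912 signal units in the knockout arrays and 2682 and 2688 in the control arrays on its brightest probe set, a log2 difference of -1.49 ± 0.20 (SE, n = 2 against 2). It fell with the replicate number as a block (limma adjusted p = 0.000281) and did not pass without it (limma adjusted p = 0.227). All signals quoted are the deposited values. Log2 values and differences are on the scale log2(signal + 16) after quantile normalization, which understates changes of dim genes. The array medians lay between 50.6 and 78 signal units. A probe set is called above the level filter where its mean over the 4 arrays reached the median of all probe sets, 6.26 on the log2 scale.

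Of the 9 genes, 3 (Serpinb6b, Serpinb9 and Serpinb9b) had a knockout level at least 2-fold above the control in both pairs, a size reached by 1.18% of all genes with a probe set and by 1.44% of the 11079 genes above the level filter. None, 0 of 9, was at least 2-fold lower in both pairs (0.286% of all genes). Both knockout arrays lay above both controls for 5 members (18% of all genes did), namely these 3, Serpinb8 and Serpinb6a, and below them for 0 (13.6%). Since the members were chosen on this contrast, nothing is read from these counts. Above the level filter were 7 members, all but Serpinb5 and Serpinb6c. Serpinb1a alone of the 7 had a group mean below the filter, with 6.09 in the knockouts and 6.88 in the controls (mean log2). In a bulk sample a change in RNA per cell cannot be told apart from a change in the share of cells that hold the RNA.

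Serpinb6b, which encodes a mouse serpin reported to inhibit granzyme A, read 708 and 577 signal units in knockouts 1 and 2 and 156 and 41.5 in controls 1 and 2 (probe set 1422804_at). The groups did not overlap, the knockout arrays were close to each other, and control 2 lay below its array's median. The log2 difference was 2.67 ± 0.43 (SE, n = 2 against 2), a 6.36-fold higher level. Within pairs 1 and 2 it was 2.14 and 3.20.

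Serpinb9, the granzyme B inhibitor with which cytotoxic lymphocytes protect themselves from their own granules, read 1010 and 657 signal units in the knockouts and 312 and 199 in the controls (1422601_at). Its log2 difference was 1.63 ± 0.30, or 3.10-fold, with 1.73 and 1.54 in pairs 1 and 2. The second probe set (1439790_at) read 215 and 135 in the knockouts and 82.4 and 34.6 in the controls, a log2 difference of 1.34 ± 0.33. On both probe sets the groups were apart, and array 1 was the higher one in each group.

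Serpinb9b, a mouse copy of the Serpinb9 group, read 549 and 509.7 signal units in the knockouts and 150.5 and 76.7 in the controls (1422668_at). The log2 difference was 2.08 ± 0.28, a 4.24-fold higher level, with 1.82 and 2.35 in the pairs. The knockout arrays were nearly equal to each other and both stood above both controls. These 3 genes follow one another in the cluster and lie on the same strand. Ordered by the smaller of the 2 pair differences, Serpinb6b was 25th, Serpinb9b 34th and Serpinb9 48th of the 11079 genes. The genes were chosen with these differences known, so nothing is read from the ranks.

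**Figure D1:**
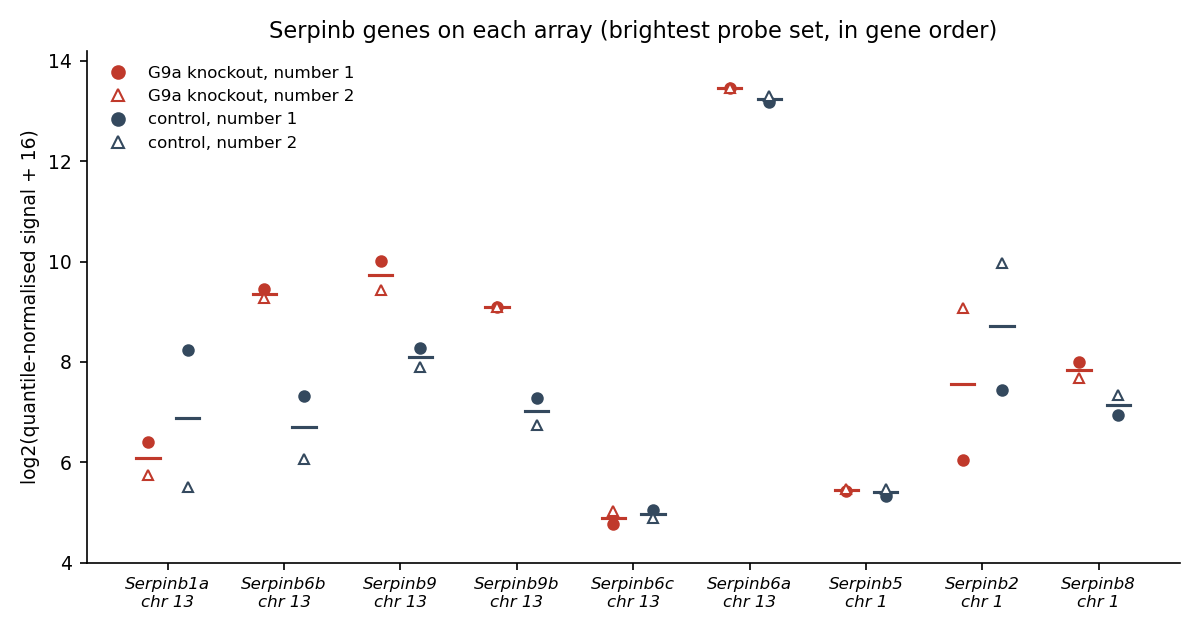
Level of the 9 genes on each array, as log2 of quantile-normalized signal plus 16, in gene order, with knockout arrays (red) left of control arrays (dark) and a bar at each group mean of 2 arrays. Serpinb6b, Serpinb9, Serpinb9b, Serpinb8 and Serpinb6a have both red marks above both dark ones, by little for Serpinb6a. Serpinb6a is the brightest in every array, and Serpinb2 is parted by replicate number.

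Serpinb6a, the counterpart of human SERPINB6, an inhibitor of cathepsin G, was the brightest member by far. It read 11094 and 11734 signal units in the knockouts and 8807 and 10209 in the controls (1450138_a_at), a log2 difference of 0.21 ± 0.11, with 0.27 and 0.15 in the pairs. The arrays of the groups did not overlap, though the difference was small. Signals of different probe sets depend on their probes, so a brighter signal does not by itself give a higher RNA level. Serpinb6c, a close copy of Serpinb6a, read between 14 and 15.1 in the knockouts and between 10.7 and 18 in the controls on a probe set that can match several transcripts (1451594_s_at), below every array median.

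Serpinb8, whose human counterpart inhibits furin, read 269 and 172 signal units in the knockouts and 117 and 126 in the controls (1422776_at). The log2 difference was 0.70 ± 0.28, with 1.06 and 0.34 in the pairs, and the groups were apart. The second, dimmer probe set (1458882_at) read 62.6 and 43 in the knockouts and 35.6 and 16.8 in the controls, a log2 difference of 0.62 ± 0.32. Both probe sets had higher values in the knockout in both pairs, the first more so in pair 1 and the second in pair 2.

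Serpinb2, plasminogen activator inhibitor 2, which blocks urokinase, read 64.3 and 498 signal units in the knockouts and 171 and 985 in the controls (1419082_at). Number 2 was far above number 1 in both groups, so the groups overlapped. Within each number the knockout array was the lower one, with log2 differences of -1.39 and -0.91 in pairs 1 and 2. The mean difference of -1.15 ± 1.15 has an SE that counts the gap between the numbers as spread. With 1 array left out the numbers are unbalanced, and the value ran from -2.66 without knockout 2 and -2.42 without control 1 to 0.12 without control 2 and 0.36 without knockout 1.

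Serpinb1a, an inhibitor of neutrophil elastase, cathepsin G and proteinase 3, read 86 and 31.8 signal units in the knockouts and 304 and 24.1 in the controls (1416318_at). Control 1 stood above the other 3 arrays. The knockout was lower by -1.83 in pair 1 and differed by 0.24 in pair 2, for a mean of -0.80 ± 0.85. The second probe set (1448301_s_at), below the level filter, read 28 and 6.4 in the knockouts and 51.6 and 10 in the controls, with -0.78 and -0.28 in the pairs. On the brighter probe set the mean difference was 0.57 without control 1, -2.16 without control 2, -1.12 without knockout 1 and -0.47 without knockout 2.

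Serpinb5, maspin, a serpin of epithelial cells that does not inhibit proteases, lay below every array median on all 4 of its probe sets. The brightest (1421752_a_at) read 36 and 23.6 signal units in the knockouts and 25.5 and 22.8 in the controls, a log2 difference of 0.05 ± 0.27. Another (1424623_at) read 16.1 and 14.4 in the knockouts and 1.4 and 1.5 in the controls, a log2 difference of 0.80 ± 0.18. That probe set alone of the 4 had groups apart. At such low signals its size depends on the constant of 16 added before the logarithm.

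**Figure D2:**
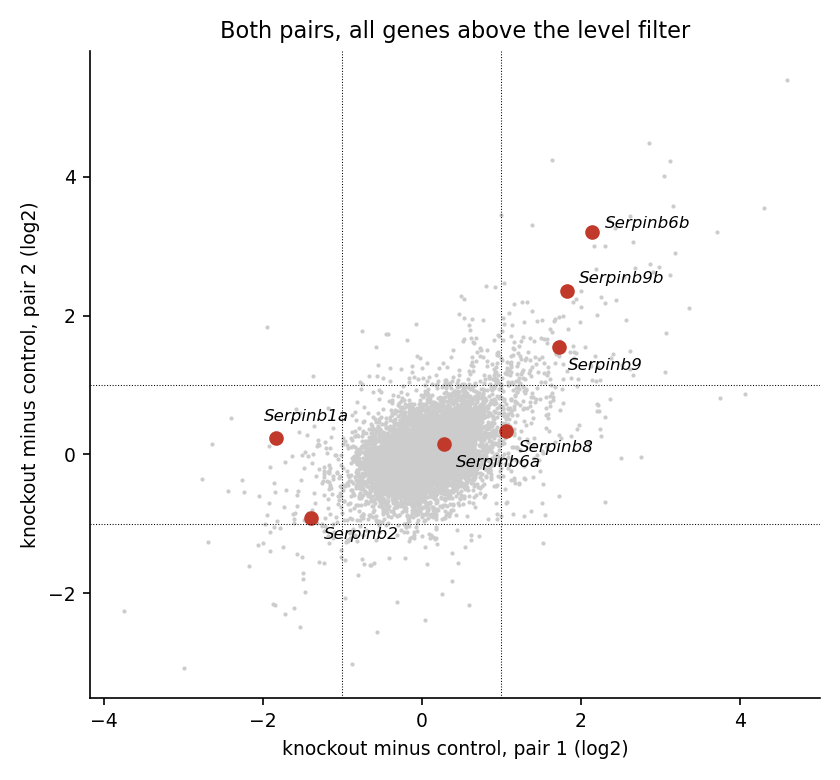
Knockout minus control (log2) in pair 1 (horizontal) and pair 2 (vertical), with a grey dot for each of the 11079 genes above the level filter, the 7 members among them in red and dotted lines at a 2-fold difference. Serpinb6b, Serpinb9 and Serpinb9b lie beyond 2-fold in both pairs, Serpinb8 in pair 1 alone, and Serpinb1a and Serpinb2 lie beyond 2-fold lower in pair 1 alone.

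The replicate-number contrast is independent of the knockout-control contrast that chose the genes, so it was tested, with genotype as a term in the model. The numbers differ in Xist, the RNA that coats the inactive X chromosome, which read 9810 (knockout) and 11049 (control) signal units in number 1 and 58 and 41.8 in number 2. Of the 7 members above the level filter, 2 differed between the numbers at a limma adjusted p under 0.05, beside 16.7% of genes above the filter (8.46% higher and 8.26% lower in number 2). Serpinb2 was higher in number 2 by a log2 difference of 2.78 ± 0.21 (limma adjusted p = 5.24e-05), by 3.01 in the knockouts and 2.54 in the controls. Serpinb1a was lower in number 2 by -1.69 ± 0.42 (limma adjusted p = 0.0237), by -0.65 in the knockouts and -2.72 in the controls. It passed the level filter only through number 1, where it is high (mean log2 of 5.64 in number 2 and 7.33 in number 1), and most of the gap lies in the controls, where control 1 stands apart, so its call is given as a description.

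The other 5 tested members did not pass. Serpinb6b differed between the numbers by -0.72 ± 0.26 (limma adjusted p = 0.0835), Serpinb9 by -0.47 ± 0.18 (limma adjusted p = 0.107) and Serpinb9b by -0.26 ± 0.22 (limma adjusted p = 0.456). Serpinb6a and Serpinb8 differed by 0.05 ± 0.08 and 0.03 ± 0.25 (limma adjusted p = 0.696 and 0.955). With a single residual degree of freedom these errors lean on the spread of all probe sets. Serpinb1a lost its call with no level filter, without the intensity trend or with its probe sets averaged, and without the genotype term 0 members were called. The share of all genes called was not counted under those settings.

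**Figure D3:**
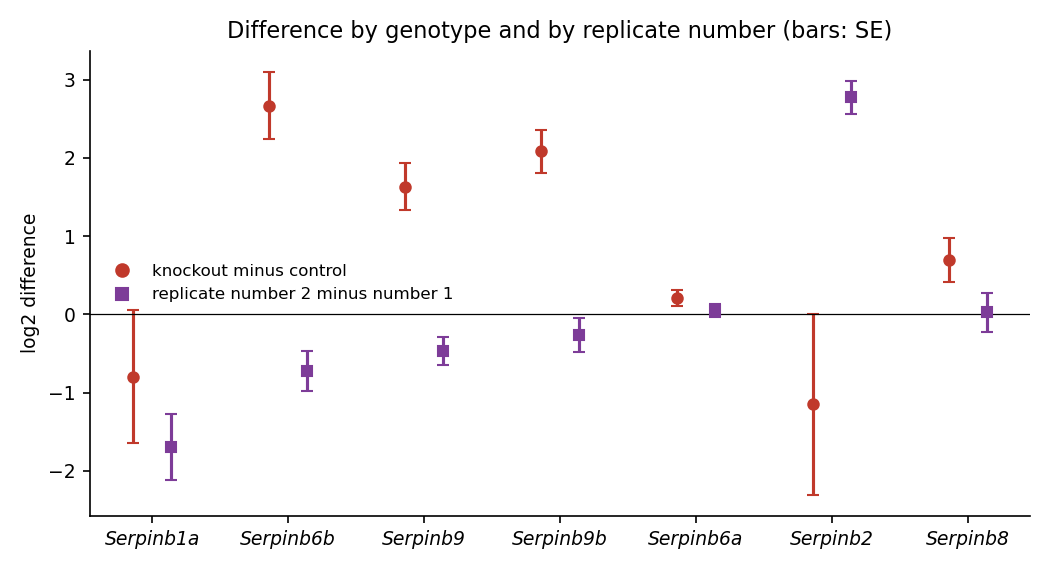
Log2 difference of the 7 members above the level filter, knockout minus control (red circles, model without the pairing) and replicate number 2 minus number 1 (purple squares, model with a genotype term), with bars of 1 SE from limma. Serpinb6b, Serpinb9, Serpinb9b, Serpinb8 and Serpinb6a have a larger difference by genotype, the contrast on which the genes were chosen. Serpinb1a and Serpinb2 have a larger one by replicate number.

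Another 9 Serpinb genes had a probe set of their own, and 8 of them lay below the level filter. Only Serpinb6e, at 565 and 227 signal units in the knockouts and 320 and 236 in the controls, was tested, and it did not pass (log2 difference 0.37 ± 0.39). For this 1 gene limma gave no call without the pairing (background 0% in each direction) or with it (background 3.25% higher and 0.984% lower), and its unadjusted p of 0.383 was not under 0.05 (background 3.8% higher and 1.27% lower). The median log2 difference of the 9 genes was 0.19, beside 0.02 over all genes with a probe set. Next to Serpinb9b in the gene order, Serpinb1b (pairs 0.16 and 0.22), Serpinb9c (0.15 and 0.79) and Serpinb9d (-0.01 and -0.05) all lay below the filter.

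Farther along the cluster, Serpinb9g, singled out after its values were seen, read 168 and 35.2 signal units in the knockouts and 11.7 and 10.6 in the controls, with log2 differences of 2.58 and 0.98 in the pairs. A probe set annotated to several genes of the Serpinb9 group (1418423_s_at) read 154 and 62.4 in the knockouts and 21 and 12.4 in the controls, with 2.04 and 1.49 in the pairs. Both lay below the level filter, and for both the knockout arrays stood above the controls. The promoter windows of Serpinb9d, Serpinb9e, Serpinb9f and Serpinb9g shared between 83.2% and 93.4% of aligned columns. Transcripts were not compared, and whether the probe sets tell the copies within the Serpinb6 and Serpinb9 groups apart was not tested.

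Genes that flank the clusters were read as a local comparison, 10 on each side of each cluster. Of these 40 genes, 29 were above the level filter and 0 of those were at least 2-fold apart in both pairs. Of all genes above the filter 1.44% were higher and 0.316% lower by that size, so 0 of 29 tells little. Cdh19, a cadherin gene just past Serpinb8 and Cdh7 on chromosome 1, was the exception below the filter, with 164 and 22.3 signal units in the knockouts and 12.1 and 2.3 in the controls. Of the 29, limma called 0 higher and 0 lower without the pairing, with 1 higher and 0 lower below an unadjusted p of 0.05. Paired, 1 rose and 0 fell, beside the 3.25% and 0.984% of all genes above the filter. That gene was Gmds, before the chromosome 13 cluster, which encodes an enzyme of GDP-fucose synthesis and read 1714 and 1372 signal units in the knockouts and 906 and 912 in the controls (log2 difference 0.79 ± 0.23; limma adjusted p = 0.865 without the pairing and 0.0259 with it). The median log2 difference was 0.12 over the 29 genes, beside 0.007 over all genes above the filter. Wrnip1, before Serpinb1a, differed by -0.04 and -0.18 in the pairs, and Nqo2, after Serpinb6a, by 0.38 and 0.40. No test of the clusters against their flanks was made, because the members were chosen on this contrast.

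**Figure D4:**
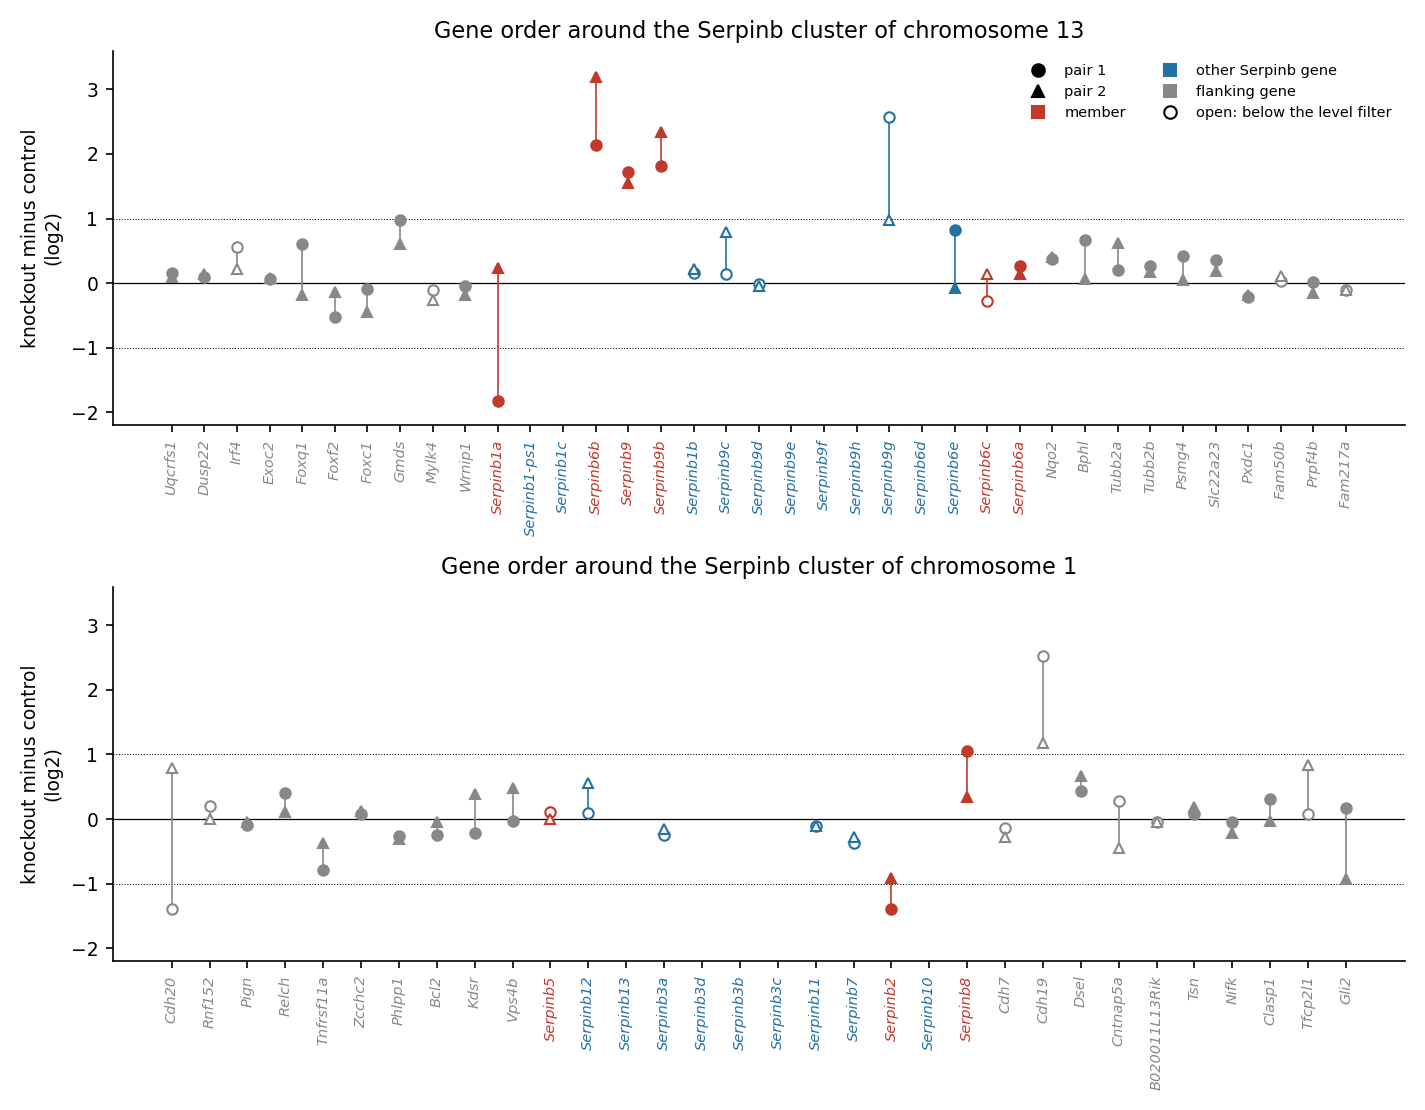
Knockout minus control (log2) in pair 1 (circles) and pair 2 (triangles) for genes in their order around each Serpinb cluster, with members in red, other Serpinb genes in blue, flanking genes in grey, open marks below the level filter, dotted lines at 2-fold and no mark for genes without a probe set of their own. On chromosome 13 Serpinb6b, Serpinb9 and Serpinb9b stand together above 2-fold in both pairs, and on chromosome 1 Cdh19 alone does.

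Serpins of other clades, most of them secreted, had 22 genes with a probe set, of which 4 were above the level filter (median log2 difference 0.13). By limma 0 rose and 0 fell, with 1 higher and 0 lower below an unadjusted p of 0.05 (3.8% and 1.27% of genes above the filter). Paired, 1 rose and 0 fell, beside 3.25% and 0.984% of genes above the filter. That gene was Serping1, which encodes the complement C1 inhibitor and read 318 and 165 signal units in the knockouts and 126 and 62 in the controls (log2 difference 1.16 ± 0.34; limma adjusted p = 0.865 without the pairing and 0.02 with it).

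In a list of proteases that clade B serpins inhibit or meet in cells, which also holds the urokinase receptor gene Plaur, 32 of 34 genes had a probe set and 9 were above the level filter (median log2 difference 0.37). By limma 0 rose and 0 fell, with 1 higher and 0 lower below an unadjusted p of 0.05 (again beside 3.8% and 1.27%). Paired, 1 rose and 0 fell, against the same 3.25% and 0.984%. The gene was Ctsh, the lysosomal cathepsin H gene, at 3203 and 2268 signal units in the knockouts and 1152 and 1075 in the controls (log2 difference 1.29 ± 0.25; limma adjusted p = 0.432 without the pairing and 0.00145 with it). The serine proteases that Serpinb1a, Serpinb6b and Serpinb9 are known for were dim: Elane, Ctsg, Prtn3, Gzma and Gzmb lay below the array median on all 4 arrays. Plau, the urokinase that Serpinb2 blocks, read 40.8 and 58.5 in the knockouts and 78 and 22.6 in the controls, and Plaur read 2281 and 3695 in the knockouts and 1979 and 2364 in the controls. Klk8, a kallikrein gene below the filter, read 75.4 and 37.8 in the knockouts and 5.6 and 3.4 in the controls, at least 2-fold higher in both pairs.

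The genes whose 4 array values ran most like those of the 3 leading members were found by distance between log2 values, each centred on its own mean over the 4 arrays, among 11072 other genes. Nearest to Serpinb9 were As3mt (distance 0.126), Cd59a (0.173) and 4930486L24Rik (0.180). Nearest to Serpinb9b were Sncg (0.263), Ctsw (0.279) and Trav9d-3 (0.338), and nearest to Serpinb6b were Aspn (0.403), Macc1 (0.418) and Gabra4 (0.461). Serpinb9 and Serpinb9b were 0.61 apart, Serpinb9b and Serpinb6b 0.794 and Serpinb9 and Serpinb6b 1.23. Distances over 4 arrays rank profiles and test nothing.

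Markers of the labelled and of other cell types were read because lymphocytes, myeloid cells, keratinocytes and placenta are known for clade B serpins. Of the mesenchymal markers 10 of 11 had a probe set and all 10 lay above the level filter, with summed signals of 67975 and 68804 in the knockouts and 64112 and 60138 in the controls. Summed signals of 6 cytotoxic lymphocyte markers were 427 and 196 in the knockouts and 356 and 197 in the controls. Those of 8 leukocyte and macrophage markers were 1062 and 798 in the knockouts and 848 and 816 in the controls, and those of 5 neutrophil markers were 195 and 72.8 in the knockouts and 158 and 127 in the controls. The mesenchymal sum was slightly higher in the knockout in both pairs, and the lymphocyte, leukocyte and neutrophil sums in pair 1 alone. These sums are of deposited signals, so gaps between whole arrays enter them. After normalization the median log2 difference was 0.04 for the mesenchymal markers (6 of 10 positive). It was -0.07 for the lymphocyte markers (3 of 6 positive) and 0.12 for the leukocyte and macrophage markers (5 of 8 positive). Within the mesenchymal list Col3a1, a collagen gene, was higher in both pairs (0.34 and 0.68, log2; limma adjusted p = 0.999 without the pairing and 0.0155 with it). Dlk1 (-1.72 and -0.11), Pdgfra (-1.25 and -0.41), Cd34 (-0.67 and -0.21) and Cd44 (-0.22 and -0.12) had lower values in both pairs and passed in neither model. Of the 5 neutrophil markers only Mpo had a positive mean difference, and the list's median was -0.68.

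The sums of 8 mast cell markers, 871 and 1214 in the knockouts and 236.5 and 201.5 in the controls, were higher in the knockout in both pairs. They came from the tryptase gene Tpsab1, at 627 and 1102 in the knockouts and 57.9 and 66.1 in the controls (limma adjusted p = 0.17 without the pairing and 2.29e-05 with it). The other 7, among them Kit, Cpa3 and Fcer1a, lay below the array median on all 4 arrays. Of the 8 mast cell markers 3 had a positive mean log2 difference, and the list's median was -0.26. The 8 epithelial markers summed to 1147 and 603 in the knockouts and 469 and 548 in the controls, led by the keratin gene Krt18 at 527 and 244 in the knockouts and 93.6 and 125 in the controls (limma adjusted p = 0.684 without the pairing and 0.0213 with it). The 5 endothelial markers summed to 325 and 155.5 in the knockouts and 138 and 79.8 in the controls, with 0 above the level filter. The 4 trophoblast markers, 1 of them above the level filter, summed to 230 and 132 in the knockouts and 177 and 96.2 in the controls. After normalization the median log2 difference was 0.16 for the epithelial markers (6 of 8 positive). It was 0.50 for the endothelial (5 of 5) and 0.26 for the trophoblast markers (3 of 4), beside 0.02 over all genes with a probe set. The part of these differences in the serpin values was not tested.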

How the data were processed

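Affymetrix arrays of 4 samples were used, 2 G9a knockout and 2 control. The authors deposited 1 signal intensity per probe set and array on a linear scale, made with MAS5 per the submitters' processing notes; its version is not given in the sources used here. Each array had a mean of 500 after trimming 2% from each end. The 64 control probe sets were left out, leaving 45037, of which 34945 carried 1 symbol, 932 several and 9160 none here. Gene IDs gave current RefSeq symbols (34741 matched). The array medians spanned 0.62 in log2, so intensities were quantile normalized and taken as log2(signal + 16). The 22519 probe sets at or above the 50th percentile of the mean were tested with lmFit and eBayes with an intensity trend (limma 3.58.1, R 4.3.3), with Benjamini-Hochberg adjustment over all of them and a threshold of 0.05. Fits were tested on simulated data. A gene is represented by its brightest single-gene probe set. SEs of probe sets below the filter come from the same model over all probe sets. With 2 against 2, the smallest two-sided p of an exact permutation test is 0.333. The number of arrays limits all precision.

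The members and lists were chosen with earlier results of these data known. Named were all members, genes of the other Serpinb, other serpin, protease and flanking lists at least 2-fold apart in both pairs or called in either model, and the 3 nearest profiles per leading member. Other protease, neighbouring and marker genes were named after their values were seen. Motifs were picked after the files were seen, and the 8-base IRF core replaced a longer interferon motif searched first. Same-numbered arrays deviated together (correlation 0.603) and shared Xist and Eif2s3y patterns (Eif2s3y at 228 in knockout 1, 141 in control 1, 1265 in knockout 2 and 1127 in control 2), so the numbers were taken as pairs. The planned model without the pairing, with 2 residual and 4.10 prior degrees of freedom, stayed the main one; the paired model has 1 and 9.81. Promoter windows were aligned with Biopython 1.88. Alternatives covered the pseudocount, filter, scaling, trend, probe set choice, the replicate block and each array left out.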

Additional observations from a re-analysis of the deposited data

Results flagged for a closer look

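Serpinb1a stood out because its knockout minus control difference (log2) ran opposite ways in the pairs, -1.83 in replicate number 1 and 0.239 in number 2. In number 2 both signals, 31.8 in the knockout and 24.1 in the control, lay below every array median, and the second probe set was lower in both pairs (-0.78 and -0.28). With 1 pair of each number the difference between them was not tested.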

How the results depend on the processing

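Serpinb6b, Serpinb9 and Serpinb9b were the members at least 2-fold higher in both pairs under both pseudocounts, no filter, both other scalings, averaged probe sets and single-transcript probe sets. With the 75th percentile filter 1 was left, since fewer genes pass it. Chosen after the data were seen, pair 1 alone gave 4 members (3.53% of genes) and pair 2 alone 3 (3.55% of genes). At least 2-fold lower were 2 members in pair 1 and 0 in pair 2, with no share over all genes counted. Over all settings, each array left out included, Serpinb6b ran from 2.04 to 3.30, Serpinb9 from 1.35 to 1.91 and Serpinb9b from 1.74 to 2.34. Serpinb5 reached 0.80 on its only probe set not open to several transcripts, and Serpinb5 and Serpinb6c, both near 0, changed sign without control 1. Serpinb6c did so without knockout 1 and with the deposited scaling too. Median centring moved the median of all genes by genotype to -0.11. By replicate number that median was 0.40 with median centring and -0.07 with the deposited scaling, against 0.002 with quantile normalization. The 2 members that differed between replicate numbers became 4 with the deposited scaling, which added Serpinb6b and Serpinb9. They became 3 with median centring, which added Serpinb6a. The count was 1 without the level filter, without the trend or with averaged probe sets. It was 0 with the 75th percentile filter or no genotype term. The share of all genes called was counted under the main setting alone, so nothing is read from these counts. The cause was not tested. The pair and replicate-number counts need all 4 arrays, so leaving out arrays was not run for them. With the replicate block, Ehmt2 kept its -1.49 and passed (adjusted p = 0.000281), and Ctsh, Serping1, Gmds, Tpsab1, Krt18 and Col3a1 were called higher, so that 1 protease and 1 non-B serpin stand against 0; the block changed no other call in the lists. The flanking count of 1 became 0 with a pseudocount of 64 or the 75th percentile filter. Dim probe sets limit Serpinb5, Serpinb6c and Serpinb9g.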
